A study of Mus musculus with 2 samples.

Results

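The replication-dependent histone genes code for the H1, H2A, H2B, H3 and H4 proteins that package newly copied DNA. Members were protein-coding genes of mouse GENCODE M21 whose symbols begin with Hist1h, Hist2h, Hist3h or Hist4h, matched to the deposited gene tables by identifier. Of 67 such genes 64 had a row, among 21474 protein-coding genes in the tables. These were 6 H1, 18 H2A, 15 H2B, 12 H3 and 13 H4 genes. Hist2h2bb, Hist1h2bm and Hist1h2bh were not analysed here. Of the 64 genes, 52 lie on chromosome 13 (the Hist1 cluster), 9 on chromosome 3 (Hist2), 2 on chromosome 11 (Hist3) and 1 on chromosome 6 (Hist4).

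The study sequenced polyA-selected RNA as paired ends from G1E-ER4, an immortalised male mouse erythroid line. The parent line G1E has no GATA1, the main erythroid transcription factor, and G1E-ER4 had it restored as a fusion with the estrogen receptor's ligand-binding part, which estradiol activates. Both libraries, biological replicates 1 and 2 of 1 group, were made after 14 h of 17beta-estradiol at 10 nM, which induces differentiation. The labels also list 1 biosample for both, so how independent the libraries are cannot be told, and no untreated sample was analysed here.

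Histone mRNAs of this kind are made mainly in S phase, when NPAT and its partners switch on the clustered genes together. They ordinarily end at a conserved stem-loop bound by SLBP and cut by a complex that contains the U7 small nuclear RNA, and carry no polyA tail. Polyadenylated forms that run on past the stem-loop are also known, among others in differentiating cells. The genes are short, mostly without introns, and many are near-identical copies of each other, so that many reads match more than 1 gene.

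The deposited expected counts, estimated fragment counts in which reads that match several genes are divided among them, came to totals of 38395479 and 60097379 in replicates 1 and 2. A count of 0 allows up to 3 counts, which equal 0.0781 and 0.0499 CPM (counts scaled to library size) and cover counting error only. Levels are in TPM, which is count divided by effective transcript length and scaled to the same total in each library. This puts genes on 1 scale, but it raises short transcripts relative to long ones more than division by full length would. All 8 erythroid markers were expressed. Hbb-bs stood at 13158 and 49652 TPM in replicates 1 and 2, and Gata1, restored in this line as a fusion, at 1132 and 2656 TPM. Klf1 went the other way, at 1422 and 754 TPM, and Hba-a2 was nearly level, at 9928 and 9540 TPM. Of markers of other cells 0 of 8 reached 1 TPM, with Cd79a highest at 0.05 and 0.16 TPM. Erythroid markers together stood at 32917 and 83873 TPM, and their part in the histone values was not tested.

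The stem-loop is shown first because it sets how these transcripts end. The sense strand of M21 transcripts (GRCm38) was searched for a pattern of 16 bases, a stem of 6 on each side of a loop of 4, in which 2 positions of each stem arm and 2 of the loop could be any base. Of the 67 member genes 46 have a match in a transcript. Over protein-coding transcripts of all genes, members included, 209 of 58758 (0.356%) have one, which is a share of transcripts and not of genes. In the forms below, from 5′ to 3′, capitals mark the paired stem and lower case the loop.
H1, H2A, H2B and H3 form (26 genes): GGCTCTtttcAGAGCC
H1, H2B and H3 form (6 genes): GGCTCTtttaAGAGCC
H4 form (7 genes): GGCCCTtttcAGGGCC
another H4 form (2 genes): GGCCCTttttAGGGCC
further H4 form (2 genes): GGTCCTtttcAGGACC
The first form is in 3 H1, 10 H2A, 8 H2B and 5 H3 genes. The stems of the H4 forms were found in H4 genes only, among members. Hist1h4a, Hist1h3g and Hist2h2ac each had a form of their own, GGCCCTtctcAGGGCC, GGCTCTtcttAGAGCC and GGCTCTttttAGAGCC.

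Most members were detected in these polyA-selected libraries, and nearly all of the signal lay on H2A genes. At 1 TPM or more in both libraries, 53 of 64 members (82.8%) counted as expressed, against 37.6% of protein-coding genes. Members summed to 54039 TPM in replicate 1 and 37270 TPM in replicate 2, which is 5.40% and 3.73% of all TPM. By expected count they took 1.37% and 1.06%.

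H2A, which pairs with H2B in the nucleosome, summed to 52607 TPM in replicate 1 and 36350 in replicate 2 (44478 ± 11495, SD, n = 2). H4, the partner of H3, summed to 501 and 328 TPM (415 ± 122, SD, n = 2). H3 summed to 479 and 294 TPM (387 ± 131, SD, n = 2). H2B summed to 287 and 194 TPM (241 ± 65.8, SD, n = 2), and H1, the linker histones, to 164 and 104 TPM (134 ± 43.0, SD, n = 2). Replicate 1 was the higher library in every class sum.

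The ratios between classes moved less than the sums. H3 over H4 was 0.956 in replicate 1 and 0.895 in replicate 2, and turned to 1.39 and 1.33 in CPM, which is not divided by length. H2A over H2B was 183 and 187, H2A over H3 was 110 and 124, and H2A over H4 was 105 and 111. The excess of H2A rested on 5 genes, Hist1h2ap, Hist1h2ad, Hist1h2ao, Hist1h2af and Hist1h2ah, which held 98.2% of H2A TPM in both libraries and 95.6% and 95.7% of all member TPM. The other 13 H2A genes summed to 953 and 666 TPM, which is 3.32 and 3.43 times H2B, 1.99 and 2.27 times H3, and 1.90 and 2.03 times H4. In a nucleosome the core histones are present in equal numbers. Leaving out these 5 genes was decided after their values were seen.

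**Figure D1:**
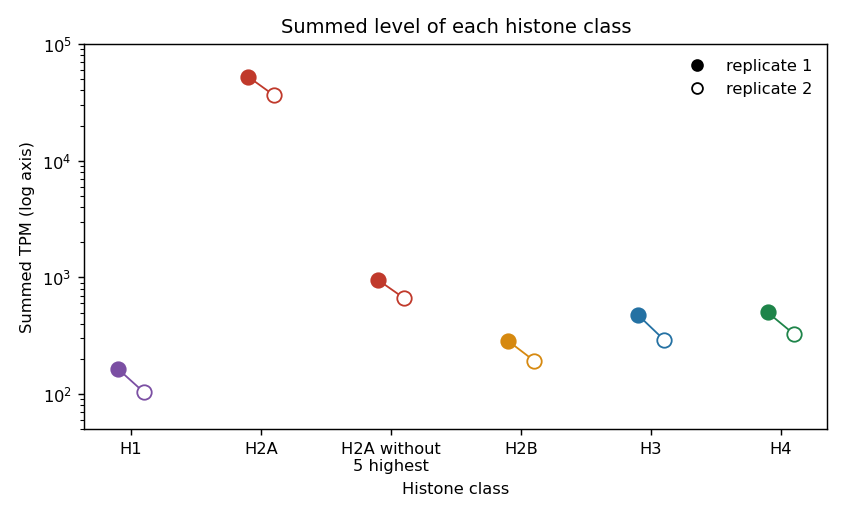
Summed TPM of each histone class (log axis), replicate 1 filled and replicate 2 open, with H2A also shown without its 5 highest genes. H2A stood at 52607 and 36350 TPM, and without those genes at 953 and 666 TPM, nearer to H2B, H3 and H4, which lay between 194 and 501 TPM.

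The H2A genes spanned the widest range of levels. Hist1h2ap (chr13:21833026-21833507) had levels of 16483 and 20289 TPM in replicates 1 and 2, rank 5 among protein-coding genes in both. Hist1h2ad (chr13:23574381-23574952) stood at 16754 and 4334 TPM, rank 4 and 24. Hist1h2ao (chr13:21810465-21810944) stood at 11809 and 5530 TPM, rank 8 and 19. Replicate 1 was higher for Hist1h2ad and Hist1h2ao and lower for Hist1h2ap. Hist1h2af (chr13:23533906-23534304) stood at 5505 and 3688 TPM, and Hist1h2ah (chr13:22035164-22035568) at 1102 and 1844 TPM.

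These 5 genes have nearly the same coding sequence, which is shown because it decides how far their reads can be told apart. The lines give the first 60 coding bases in M21, 5′ to 3′, with capitals where a gene differs from Hist1h2ap, and add 2 other H2A genes.
Hist1h2ap: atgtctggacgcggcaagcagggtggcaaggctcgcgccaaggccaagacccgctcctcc
Hist1h2ao: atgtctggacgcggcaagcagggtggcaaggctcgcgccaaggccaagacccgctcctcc
Hist1h2ad: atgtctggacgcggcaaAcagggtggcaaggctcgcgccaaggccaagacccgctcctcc
Hist1h2af: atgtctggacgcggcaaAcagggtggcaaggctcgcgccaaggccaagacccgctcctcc
Hist1h2ah: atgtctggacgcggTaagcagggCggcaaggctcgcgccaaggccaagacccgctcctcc
Hist1h2ak: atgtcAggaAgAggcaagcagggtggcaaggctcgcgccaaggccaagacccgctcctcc
Hist3h2a: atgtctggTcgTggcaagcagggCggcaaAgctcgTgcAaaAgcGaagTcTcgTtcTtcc
Over the whole coding sequence of 390 bases Hist1h2ao was identical to Hist1h2ap, Hist1h2ad differed at 3 bases and Hist1h2af at 6. Hist1h2ak differed at 11 bases and Hist3h2a, from the small cluster on chromosome 11, at 44. Hist1h2ah has a coding sequence of 384 bases and was not aligned over its whole length. Of all 50-base windows of the Hist1h2ap transcript 93.1% were also in Hist1h2ao, and 6.93% were in no other transcript searched. For Hist1h2ah, 87.4% of windows were also in Hist1h2ad.

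Reads shared between copies were common among the members. Of the 64 members 53 (82.8%) had an expected count that was not whole, by more than 0.01, in a library, against 4.94% of protein-coding genes. Of the 11 members with whole counts, Hist1h1b, Hist2h4 and Hist4h4 were expressed. Hist1h2ap and Hist1h2ao together stood at 28292 and 25819 TPM, a replicate 2 to replicate 1 ratio of 0.939 by counts scaled to library size. Hist1h2ad and Hist1h2af together stood at 22259 and 8021 TPM, a ratio of 0.352. The sum of the first pair was nearly level between the libraries and that of the second was not. Neither sum is free of read division. Hist1h2ad shared 59.5% of its windows with Hist1h2ah, 53.3% with Hist1h2af and 51.4% with each of Hist1h2ao and Hist1h2ap. Among members with 100 counts or more, the deposited posterior SD of the count was at most 23.4% of the count.

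The other H2A genes were lower. Hist1h2ai stood at 302 and 310 TPM, Hist1h2ak at 218 and 94.2, and Hist1h2ab at 117 and 54.1. Hist1h2ae stood at 97.0 and 48.7 TPM, and Hist1h2an at 78.8 and 29.9. Hist1h2ag was close in both libraries, at 36.8 and 35.4 TPM. Hist1h2ac stood at 30.4 and 18.4 TPM, and Hist2h2ac at 12.3 and 10.9. The near-identical pair Hist2h2aa1 and Hist2h2aa2 summed to 60.6 and 51.3 TPM, of which Hist2h2aa2 held 93.1% and 94.3%, although none of its 50-base windows is its own. Hist2h2ab stood at 0.44 and 0.45 TPM. Hist1h2aa, known as a testis form, had 0 counts in both libraries. In M21, 17 of the 18 H2A genes overlap an antisense miRNA gene model, and no source used here says whether counting used strand, so reads of the overlapping genes cannot be told apart.

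**Figure D2:**
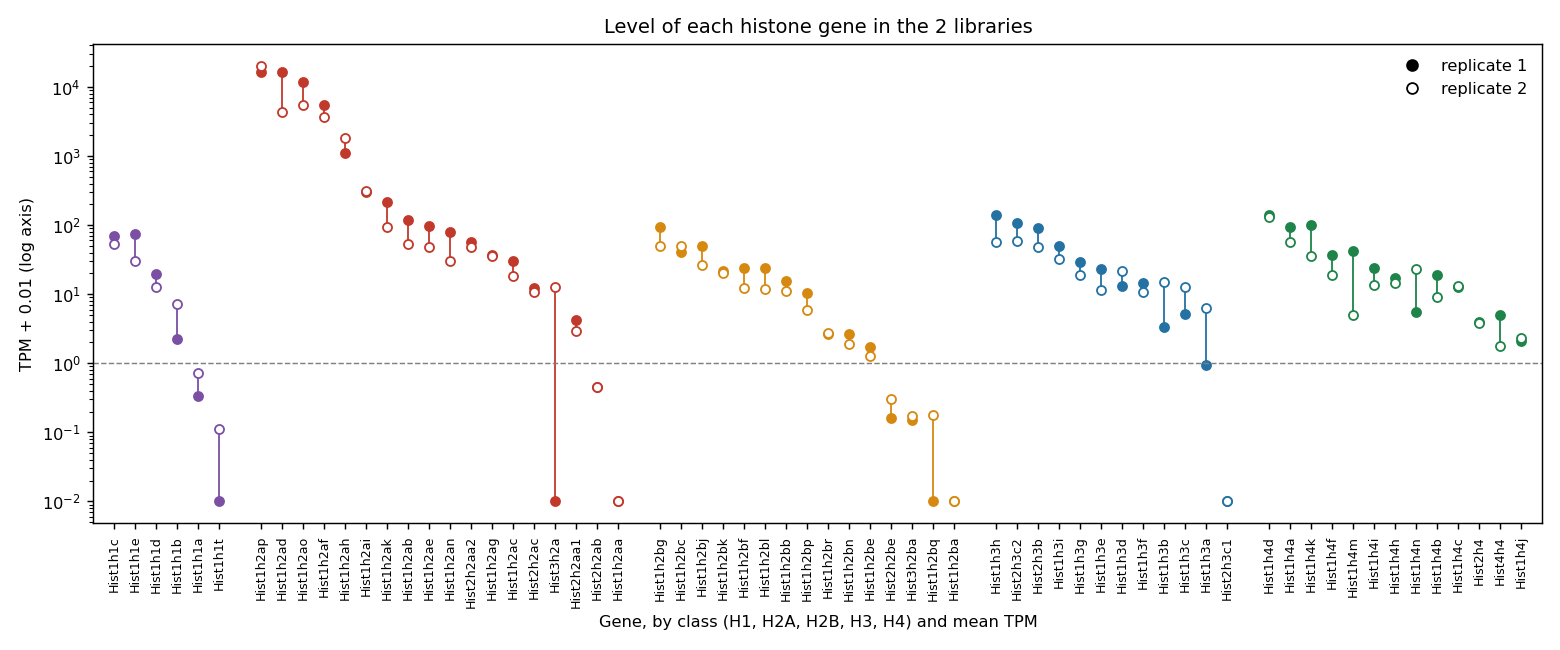
TPM + 0.01 (log axis) of each of the 64 genes by class, replicate 1 filled and replicate 2 open, with a dashed line at 1 TPM. The 5 highest genes, all H2A, lie above 1000 TPM, while no gene of another class exceeded 141 TPM.

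The H1 genes were led by Hist1h1c, at 69.0 and 53.3 TPM in replicates 1 and 2, and Hist1h1e, at 73.4 and 29.8 TPM. Hist1h1d stood at 19.4 and 12.5 TPM. Hist1h1b was lower, at 2.26 and 7.11 TPM, with 41 and 227 counts that were all whole. Hist1h1a stood at 0.33 and 0.72 TPM. Hist1h1t, the testis-specific linker histone, had 0 and 3 counts, which is at the counting limit. The H1 sum was thus made up mostly of Hist1h1c and Hist1h1e.

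Among H2B genes, Hist1h2bg was highest at 92.6 and 50.4 TPM. Hist1h2bc stood at 41.3 and 49.5 TPM, Hist1h2bj at 49.8 and 26.5, Hist1h2bk at 21.8 and 20.2, Hist1h2bf at 24.3 and 12.4, and Hist1h2bl at 24.3 and 11.8. Hist1h2bb stood at 15.4 and 10.98 TPM and Hist1h2bp at 10.3 and 5.91. Hist1h2bn stood at 2.66 and 1.88 TPM, and Hist1h2be, which overlaps Hist1h1e, at 1.69 and 1.28. The copies Hist1h2bq and Hist1h2br summed to 2.67 and 2.89 TPM in their gene rows, and to 13.4 and 13.9 TPM with a short transcript of each that the deposited tables file under another gene identifier. Hist2h2be and Hist3h2ba stayed under 0.3 TPM in both libraries. Hist1h2ba, the testis form, was listed at 0 in both.

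H3 was led by Hist1h3h, at 141 and 57.1 TPM, Hist2h3c2, at 106 and 59.0 TPM, and Hist2h3b, at 91.9 and 48.4 TPM. Hist1h3h and its copy Hist1h3i together stood at 191 and 89.4 TPM. Hist1h3g stood at 29.7 and 19.1 TPM, Hist1h3e at 23.1 and 11.6, and Hist1h3f at 14.7 and 10.8. All of these had the higher TPM in replicate 1. The opposite held for Hist1h3a (0.93 and 6.35 TPM), Hist1h3b (3.36 and 15.2), Hist1h3c (5.11 and 12.7) and Hist1h3d (13.2 and 21.3). Hist2h3c1 was listed at 0 in both libraries, and none of its 50-base windows is its own.

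All 13 H4 genes were expressed. Hist1h4d was highest and nearly level, at 141 and 131 TPM. Hist1h4a stood at 92.9 and 56.2 TPM, Hist1h4k at 98.9 and 35.8, Hist1h4f at 36.6 and 19.0, and Hist1h4i at 23.6 and 13.6. Hist1h4h, Hist1h4b and Hist1h4c lay between 9.20 and 19.1 TPM. Hist1h4m (42.7 and 4.98 TPM) and its copy Hist1h4n (5.60 and 23.4 TPM) went opposite ways, while their sum was 48.3 and 28.4 TPM. Hist2h4 (3.90 and 3.84), Hist4h4 (5.06 and 1.78) and Hist1h4j (2.12 and 2.30) were the lowest H4 genes.

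Differences between the libraries were called for most members tested, and mostly toward replicate 1. Each gene with 10 or more counts in sum was tested by a two-sided, exact binomial test of rounded counts against library sizes scaled by TMM (a method that sets the bulk of genes level). Calls needed a fold of 1.5 or more together with an adjusted p (Benjamini-Hochberg) under 0.05. Of 59 members tested 36 (61.0%) were called, where 41.5% of all 11230 genes tested were called. Of these, 26 members were higher in replicate 1 (background 18.7%) and 10 higher in replicate 2 (background 22.8%). The members' median log2 ratio, replicate 2 over replicate 1, was -0.46, against 0.01 over all genes. The test compares these 2 libraries and covers counting error only, not the spread of cultures or how shared reads were divided.

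By class, calls higher in replicate 1 numbered 1 of 5 tested for H1, 7 of 17 for H2A, 5 of 13 for H2B, 6 of 11 for H3 and 7 of 13 for H4. Calls higher in replicate 2 numbered 1, 2, 2, 4 and 1 in the same order. Summed scaled counts, replicate 2 over replicate 1, ran from 0.642 for H3 to 0.774 for H2B, with 0.672 for H4, 0.713 for H1 and 0.715 for H2A. Without the 5 highest H2A genes the ratio over all members was 0.721, against 0.714 with them. Scaling by total counts moved the median of all genes to 0.12 and that of members to -0.35, and called 32 members. It moved the part of calls higher in replicate 2 from 54.9% to 64.7% for all genes, and from 27.8% to 31.3% for members.

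Calls were made in both directions. Hist1h1b was higher in replicate 2 by 1.70 on the log2 scale (exact binomial test, adjusted p = 9.3e-15), and Hist4h4 was higher in replicate 1, with a log2 ratio of -1.43 (adjusted p = 3.2e-37, exact binomial test). Hist1h1e had a log2 ratio of -1.24 (adjusted p = 2.8e-93, exact binomial test). Hist1h1c, at -0.30, and Hist1h4d, at -0.08, were not called. In H3, the 4 genes higher in replicate 2 had log2 ratios of 2.76 (Hist1h3a), 2.22 (Hist1h3b), 1.35 (Hist1h3c) and 0.74 (Hist1h3d). Hist1h4m, at -3.06, and Hist1h4n, at 2.09, were called in opposite directions and share most of their windows. Their lower counts were uncertain, at 66.7 (posterior SD 38.3) for Hist1h4m in replicate 2 and 48.3 (posterior SD 19.65) for Hist1h4n in replicate 1.

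Hist3h2a had 0 counts in replicate 1 (posterior SD 10.6) and 1384 in replicate 2 (posterior SD 25.6) and was called higher in replicate 2, but the 0 is an estimate from divided reads and sets no fold. It overlaps Trim17 on the same strand, a gene that had 791 counts in replicate 1 and 40.5 in replicate 2. Counts of both genes together were 791 and 1424, a scaled ratio of 1.06. The genes had opposite values and a nearly level sum, and the division of reads between them was not tested. Hist1h2bq was likewise called higher in replicate 2 on 0 and 17.0 counts (posterior SD 16.6 and 10.8). With the transcript filed elsewhere it had 57.1 and 123 counts, a scaled ratio of 1.28.

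**Figure D3:**
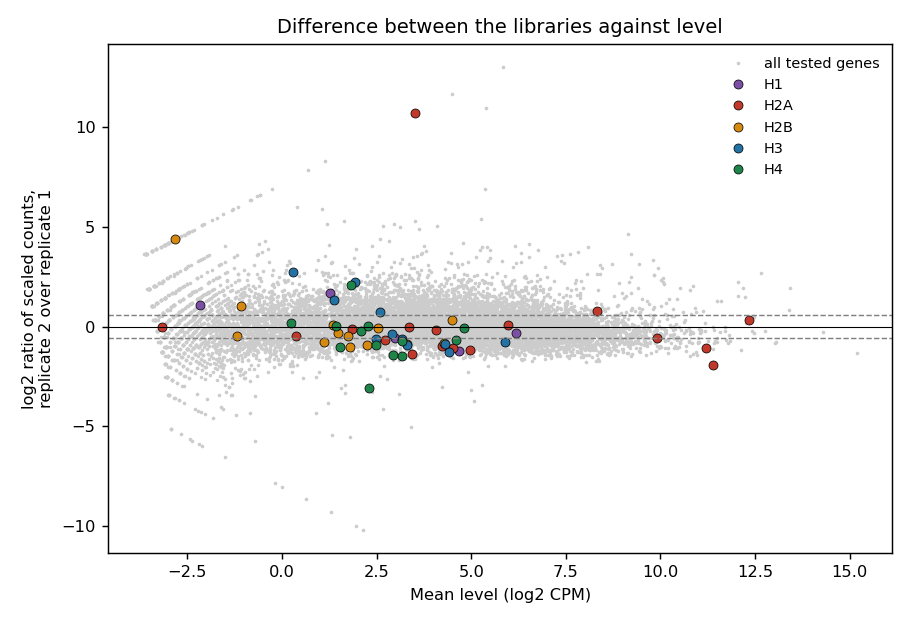
Log2 ratio of scaled counts, replicate 2 over replicate 1, against mean level in log2 CPM for all tested genes (grey) and the 59 members tested (coloured by class), with dashed lines at a fold of 1.5. Most members lie below 0, and Hist3h2a is the H2A point near the top.

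By share of counts, the models on which counts were placed had different ends in the classes, as far as annotation shows. Each measured member transcript was sorted by its M21 model as ending within 50 bases of the stem-loop, running more than 50 bases past it, or having no match. Of 69 transcripts 48 had the same length in M21 as in the deposited tables, and these held 68.0% and 87.2% of member counts in replicates 1 and 2. The other 21, such as Hist1h2ad, Hist1h1e and Hist1h4d, were counted on deposited models of another length, so their M21 class may not be that of the model counted. For Hist1h4d and Hist1h1e the M21 models run 770 and 1153 bases past the stem-loop. Their whole deposited models have only 393 and 748 bases, so the models counted cannot hold that stretch whole.

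Over the 48 transcripts of the same length, 82.2% ± 1.27 (SD, n = 2) of counts were on models that end at the stem-loop, 2.15% ± 0.187 on models that run past it and 15.6% ± 1.08 on models with no match. H2A had 84.5% ± 0.779 ending at the stem-loop and 0.168% ± 0.180 running past it, and H2B 75.5% ± 2.75 and 0.209% ± 0.0830. In H4, 61.0% ± 5.14 of these counts were on models that run past, and in H3 59.4% ± 2.96. These are shares of counts, to which a long model adds more than it does by TPM, and class shares by TPM were not computed. In H3, Hist1h3h and Hist2h3b, with no match, stood at 141 and 57.1 and at 91.9 and 48.4 TPM in replicates 1 and 2. Hist2h3c2, which runs past, stood at 106 and 59.0 TPM. In H4, Hist1h4k, with no match, stood at 98.9 and 35.8 TPM, and Hist1h4a, which runs past, at 92.9 and 56.2. Most counts running past lay on 1 gene in each of these classes. These were Hist2h3c2 in H3, with 2826 and 2773 counts, and Hist1h4a in H4, with 1109 and 1172. H1 had only Hist1h1c and Hist1h1b in this set. By M21 class over all 69 transcripts the shares running past were 97.3% for H1, 72.4% for H4, 61.7% for H3, 28.2% for H2B, 0.356% for H2A and 2.77% over all members. Part of these counts was placed on shorter deposited models, so these shares need not be those of the models counted. For H2B the transcripts of the same length held only 40.8% and 35.0% of counts in replicates 1 and 2. Over all H2B transcripts 33.0% of counts were on models that end at the stem-loop and 38.8% on models with no match.

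Single genes of unchanged length are given as examples, and within classes they went both ways. Of 9 H4 transcripts 4 end at the stem-loop, among them Hist1h4b (28 bases after it) and Hist1h4f (33), and 4 run past. Of 15 H2A transcripts 6 end at the stem-loop and 2 run past, Hist2h2ac by 57 bases and Hist3h2a by 1643. The Hist1h2ap model ends 3 bases after the stem-loop and that of Hist1h2ao 31 bases after it. The models of Hist1h1c, Hist2h3c2 and Hist1h4a run on for 840, 377 and 108 bases. Hist1h2af and Hist1h2ah have lengths of 399 and 405 bases, hardly more than their coding sequences, and hold no match. A model's end does not show where the molecules ended, and read positions were not analysed here.

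**Figure D4:**
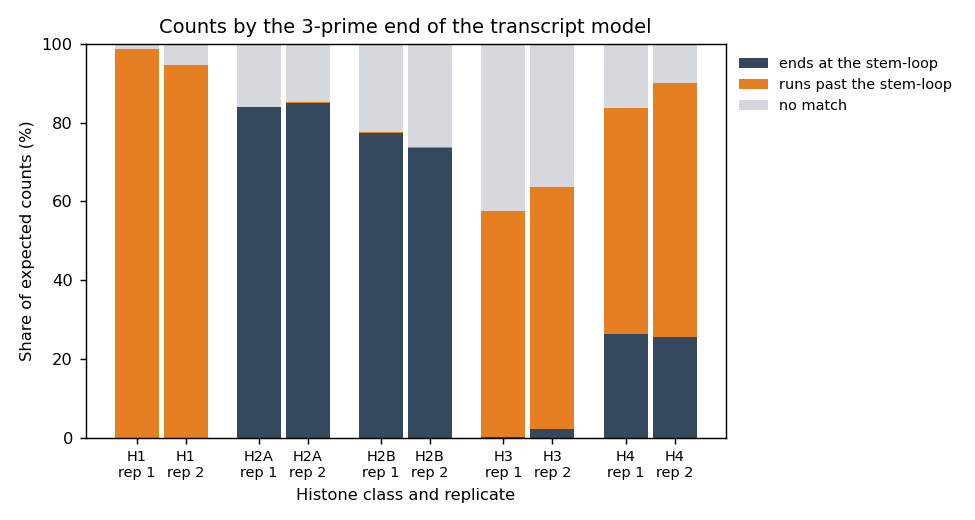
Share of expected counts (%) in each class and replicate on transcript models that end at the stem-loop (dark), run past it (orange) or have no match (grey), over the 48 transcripts of the same length in both annotations. By count, H2A and H2B are mostly dark, H3 and H4 mostly orange, and H1 rests on 2 transcripts. Class shares by TPM were not computed. For H2B these transcripts held only 40.8% and 35.0% of the counts of the class in replicates 1 and 2.

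Pairs of H2A and H2B genes that start back to back offer a comparison within 1 shared promoter region. There were 12 such pairs, with 176 to 306 bases between the starts. The H2A gene was higher in both libraries in 8 pairs, the H2B gene in 1 (Hist1h2ac and Hist1h2bc), and neither in 3, among them Hist1h2aa and Hist1h2ba, which were both at 0 and give no comparison. Hist1h2ap stood 6173 and 7459 times above Hist1h2br in TPM, and 0.166% of the 50-base windows of Hist1h2br are its own. Hist1h2ad stood 688 and 351 times above Hist1h2bf, while Hist1h2ae and Hist1h2bg were nearly equal, with ratios of 1.05 and 0.965. Hist1h2ao stood at 11809 and 5530 TPM, against 0 and 0.17 for Hist1h2bq. The values of Hist1h2br and Hist1h2bq depend on how transcripts were filed. With those given to other gene identifiers, Hist1h2ap stood 2943 and 3792 times above Hist1h2br, and Hist1h2ao 1520 and 645 times above Hist1h2bq.

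**Figure D5:**
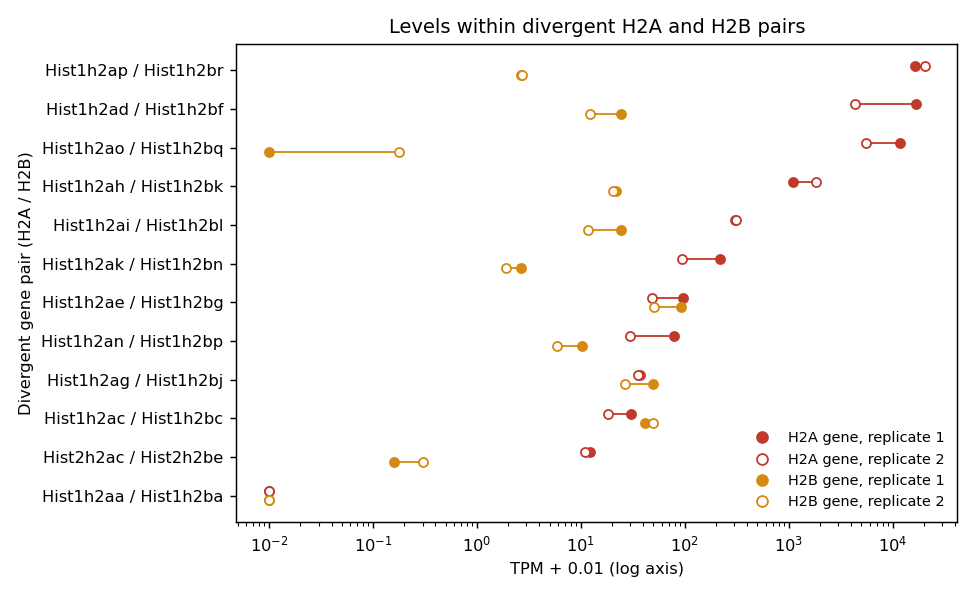
TPM + 0.01 (log axis) of the H2A gene (red) and the H2B gene (orange) of each of the 12 divergent pairs, replicate 1 filled and replicate 2 open. The pairs of Hist1h2ap, Hist1h2ad and Hist1h2ao stand furthest apart, and Hist1h2ae and Hist1h2bg overlap.

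The DNA between the starts is shown for an equal pair and for 2 unequal ones, from RefSeq (GRCm38.p6), 5′ to 3′ in the direction of the H2A gene. For the Hist1h2ap pair it stops at 21833725, short of the Hist1h2br start at 21833743, so the bases nearest that start are missing. Capitals mark the motif CCAAT, the TATA motif TATAAA and the octamer ATTTGCAT on either strand.
Hist1h2ae and Hist1h2bg, chr13:23571221-23571395, minus strand: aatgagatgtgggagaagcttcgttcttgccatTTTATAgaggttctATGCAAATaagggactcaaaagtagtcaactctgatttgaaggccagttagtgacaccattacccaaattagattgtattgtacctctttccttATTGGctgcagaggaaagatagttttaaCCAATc
Hist1h2ad and Hist1h2bf, chr13:23574197-23574380, plus strand: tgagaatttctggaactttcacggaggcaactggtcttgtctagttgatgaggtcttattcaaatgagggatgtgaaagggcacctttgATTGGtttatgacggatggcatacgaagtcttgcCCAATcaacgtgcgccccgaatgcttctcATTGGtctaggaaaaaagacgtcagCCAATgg
Hist1h2ap and Hist1h2br, chr13:21833508-21833725, minus strand: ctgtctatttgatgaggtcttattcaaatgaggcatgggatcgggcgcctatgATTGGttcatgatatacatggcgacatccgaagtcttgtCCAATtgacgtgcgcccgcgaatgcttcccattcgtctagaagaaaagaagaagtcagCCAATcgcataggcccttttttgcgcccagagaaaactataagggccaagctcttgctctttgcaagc
The equal pair has 2 CCAAT, 1 TATAAA and 1 octamer. The Hist1h2ad pair has 4 CCAAT and the Hist1h2ap pair 3, and neither holds the other 2 motifs in this window. These pairs were chosen by their levels, and the stretches of the other pairs are not shown here. A link between motifs and levels was not tested.

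Promoters of 59 members (60 sequences of 300 bases, from 250 before to 50 after each start) were found in RefSeq, and none of the 3 motifs contains another. CCAAT on either strand was in all H1, H2A, H2B and H3 promoters found and in 25% of H4 promoters, against 37.4% of all 32851 promoters of the same length. TATAAA was in 58.3% of member promoters, against 13.6%. ATTTGCAT was in 38.9% of H2A and 35.7% of H2B promoters and in none of H1, H3 or H4, against 1.74% of all. Matches are letters in a window and not sites of binding.

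Genes that act on histone genes, mRNAs and proteins were measured beside the members. Of 8 genes of histone gene transcription, 2 were called higher in each library, and these 4 of 8 are near the 41.5% called over all genes. Ccne1, a cyclin of S-phase entry, stood at 644 and 214 TPM and E2f1, a cell-cycle transcription factor, at 133 and 80.1 TPM, both higher in replicate 1. Cdk2, the kinase partner of cyclin E, was not called at 24.9 and 18.1 TPM, nor was Pou2f1, which binds the octamer, at 22.8 and 17.5 TPM. Casp8ap2 and Ccne2 were the 2 called higher in replicate 2. Npat, the coactivator of these genes, stood at 0.87 and 0.79 TPM, under the level that counts as expressed.

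Of 10 genes of histone 3′ end processing, 3 were called higher in replicate 2 and 1 in replicate 1, which is 40% against 41.5% over all genes. Slbp, which binds the stem-loop, stood at 314 and 238 TPM and was not called. Lsm11, a part of the U7 particle, stood at 74.0 and 22.2 TPM and was higher in replicate 1. Srrt (368 and 320 TPM) and the cap-binding gene Ncbp2 (69.7 and 71.6 TPM) were not called. Of 3 genes of histone mRNA decay, Upf1, a helicase, was the 1 called, higher in replicate 1 at 224 and 139 TPM, while Eri1 (11.4 and 13.7 TPM) and Lsm1 (3.41 and 2.93 TPM) were not called.

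Histone chaperones hold and deliver histones before they enter chromatin. Of 11 chaperone genes 6 were called higher in replicate 2 and 0 higher in replicate 1, with a median log2 ratio of 0.73, where 22.8% and 18.7% of all genes were called in these directions. Asf1b, which carries H3 and H4 to the replication fork, stood at 50.7 and 312 TPM, while its scaled counts, on which the call rests, were 2.21 times as high in replicate 2. Chaf1a and Chaf1b, subunits of the assembly factor CAF-1, stood at 35.1 and 78.7 TPM and at 47.8 and 66.2 TPM, with scaled counts 2.36 and 2.12 times as high. Nap1l1 (169 and 156 TPM) and Ssrp1 (87.8 and 62.0 TPM) were not called.

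Replacement histones, made outside S phase as well and mostly from polyadenylated mRNAs, exceeded H3 members in summed TPM but not H2A members. The H2A part of this rested on the 5 highest H2A genes. The other 13 summed to 953 and 666 TPM in replicates 1 and 2, under the 3646 and 4796 TPM of replacement H2A genes. Of the 11 listed 8 were tested, of which 2 were called higher in replicate 2 and 3 higher in replicate 1 (62.5% called, against 41.5% of all genes). H2afz stood at 1843 and 3793 TPM and H3f3a at 155 and 1281 TPM, both higher in replicate 2. H2afx stood at 1327 and 611 TPM and Cenpa, the centromeric H3, at 682 and 403 TPM, both higher in replicate 1. H1f0, H1fx and H2afy2 were listed at 0 in both. The H2A members summed to 14.4 and 7.58 times the 6 replacement H2A genes, and the H3 members to 0.387 and 0.145 times the 3 replacement H3 genes. Several of the counts of H2afx, H2afz and H3f3a were not whole, so copies share their reads.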

How the data were processed

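PolyA-selected RNA from 1 group of 2 libraries was used as deposited. Per the deposited notes the build is mm10 and the annotation GENCODE M4, while the aligner and quantifier were not given in the sources used here. The deposited expected counts estimate fragments per gene, with shared reads divided among genes. The deposited TPM and FPKM values divide these by effective length of the deposited models. The deposited posterior SD of the count, a signal unit here, gives the spread of each estimate.

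Symbols, biotypes, transcripts and coordinates came from GENCODE M21 (GRCm38) by identifier. Counts were rounded for an exact two-sided binomial test per gene (scipy 1.17.1) against TMM library sizes (edgeR 4.0.16), with at least 10 counts in sum, 0.5 counts added for folds and Benjamini-Hochberg adjustment over all 11230 genes. In data simulated for this comparison with counting error only (11246 genes), 92 of 100 genes changed 2-fold, 95 of the 98 tested that changed 4-fold and 1 of 11048 unchanged genes were called. Stem-loops, 50-base windows and promoter motifs were exact matches. Of 62 listed pathway and marker names 3 were not matched. Named genes are members with a mean of at least 1 TPM or called, and the 4 highest of each pathway list with those under 0.1 TPM, and others were chosen after their values were seen. Members and lists were chosen with earlier results of these data known. Alternatives covered units, scaling, filters, folds, end classes and left-out libraries.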

Additional observations from a re-analysis of the deposited data

How the results depend on the processing

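Depth limits members at a few counts, and division of shared reads limits single copies. In CPM, which are not divided by length, the class sums were 109 for H1, 11736 for H2A, 78.0 for H2B, 147 for H3 and 108 for H4, so that H1, the lowest class by TPM, was above H2B. Without the highest gene of a class, the mean sums were 72.8 TPM for H1, 26093 for H2A, 169 for H2B and 279 for H4. Without the 5 highest, chosen after seeing the data, they were 0.05, 810, 46.2, 69.1 and 85.4 TPM for H1, H2A, H2B, H3 and H4. At a fold of 2, 20 members were called, 12 of them higher in replicate 1, and the lists had 1 call in transcription, 2 in 3′ processing, 0 in decay and 2 in replacement histones. With total-count scaling the decay list had 0 calls. The share of counts on models that run past the stem-loop was 2.68% with 100 bases, 2.15% over transcripts of equal length and 1.57% by TPM. Leaving out a library gave sums of 104 to 164 TPM for H1, 36350 to 52607 for H2A, 194 to 287 for H2B, 294 to 479 for H3 and 328 to 501 for H4, 53 to 55 members expressed and 2.71% to 2.82% past the stem-loop. Of the comparisons with an alternative, 61 kept their value within the spread or within 1.5 times and 23 moved, and the cause was not tested. Reversals of order were not scored. With only 2 libraries, a class sum or a share past the stem-loop from 1 of them always lies within the SD of the mean. No paired analysis was possible because there is only 1 group.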

Other observations

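Histone pseudogenes of the same clusters also carried counts. Hist1h2aj had 33.1 and 21.5 TPM in replicates 1 and 2, and Hist1h2al at 17.4 and 13.9 TPM, while Hist3h2bb-ps was listed at 0 in both. In the deposited transcript tables, 4 transcripts that M21 gives to histone genes were filed under other gene identifiers, with 80.9 counts in replicate 1 and 143 in replicate 2. They belong to Hist1h2bq, Hist1h2br, Hist2h3c1 (0 in both libraries) and Hist2h2bb, whose transcript had 3 and 5 counts.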
